A study of Mus musculus with 30 samples.

Results

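Cranial muscle progenitor genes are described here in 2 cardiac tissues of mouse embryos at embryonic day 9.5 (19 to 21 somite pairs). They are 7 genes chosen by symbol, Myf5, Myod1, Myf6, Msc, Pitx1, Lhx2 and Ebf3, out of 20842 named genes on the mRNA arrays, and each was read by 1 probe set. The first tissue was aSHF, the anterior second heart field, where progenitors lie that have yet to enter the heart. The second was OFT-RV, the dissected outflow tract and right ventricle. Mutant embryos were Mef2c-AHF-Cre/+; Dgcr8 f/f, so that Dgcr8, which encodes the partner of Drosha in the cutting of primary miRNA transcripts, is a target for deletion where this Mef2c enhancer is or was active. That enhancer is known from aSHF cells and what they give rise to, so other cells in a dissected pool keep the gene. Wild-type embryos were Dgcr8 f/+, with 1 floxed allele and no Cre listed. Both tissues were labelled with mutant and wild-type groups of 4 arrays each, 16 mRNA arrays in all. Each array held a pool of embryos of one genotype from at least 5 litters, and the number of arrays limits the precision.

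The head muscles of the pharyngeal arches do not come from somites. They form from cranial mesoderm in the cores of the pharyngeal arches, next to the second heart field, with which this mesoderm shares progenitors and early regulators such as Tbx1 and Isl1. Myf5 and Myod1 are the basic helix-loop-helix factors that commit cells to skeletal muscle, and Myf6 is their relative in differentiating fibres. Msc (MyoR) and its relative Tcf21 act before them in jaw muscle precursors. Pitx1 and Lhx2 are homeodomain factors of arch mesoderm, and Ebf3 is a helix-loop-helix factor known in muscle and in neurons. Pitx1 is also known in oral ectoderm and the hindlimb field, and Lhx2 and Ebf3 in the nervous system.

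On the arrays Ebf3 and Lhx2 in aSHF stood furthest above genes that these tissues are not known to use. The yardstick was 1099 olfactory receptor genes, which show the signal that a probe set can give without its transcript. In aSHF, 6 of 7 genes exceeded the 95th percentile of the olfactory receptor genes in mutant and in wild-type pools, where 68.3% and 68.4% of all genes did so. In OFT-RV, 3 of 7 exceeded it in mutant pools and 4 of 7 in wild-type pools, against 66.8% and 67.2% of all genes. At the 99th percentile, a cut added after seeing the data, 2 genes were left in aSHF in both genotypes, Lhx2 and Ebf3. None of the 7 was left in OFT-RV. The share of all genes was not taken at this cut, so these counts are no mark of the 7 genes. Of the muscle determination genes, Myf5 and Myod1 lay just above the 95th percentile in aSHF and Myf6 below it in both tissues. The signal of bulk tissue cannot tell fewer expressing cells from less RNA per cell.

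The proximal promoters of Ebf3, Lhx2 and Myf5, the 3 genes whose rank differed most between the wild-type tissues, are shown to set their base composition side by side. They are the 250 bases before each annotated start in RefSeq on GRCm38.p6, read 5′ to 3′ on the gene's strand, with CpG dinucleotides in capitals. Ebf3 lies at chr7:137314446-137314695 (minus strand), Lhx2 at chr2:38339031-38339280 and chr2:38351058-38351307 (plus strand, 2 annotated starts), and Myf5 at chr10:107486135-107486384 (minus strand). Of the 7 genes 3 had an entry, and Myod1, Myf6, Msc and Pitx1 had none.
Ebf3: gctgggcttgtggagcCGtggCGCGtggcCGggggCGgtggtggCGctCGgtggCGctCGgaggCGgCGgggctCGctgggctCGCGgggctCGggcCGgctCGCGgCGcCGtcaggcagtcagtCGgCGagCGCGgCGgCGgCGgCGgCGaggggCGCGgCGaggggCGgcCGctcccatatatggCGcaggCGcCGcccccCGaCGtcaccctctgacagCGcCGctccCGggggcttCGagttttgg
Lhx2 (upstream start): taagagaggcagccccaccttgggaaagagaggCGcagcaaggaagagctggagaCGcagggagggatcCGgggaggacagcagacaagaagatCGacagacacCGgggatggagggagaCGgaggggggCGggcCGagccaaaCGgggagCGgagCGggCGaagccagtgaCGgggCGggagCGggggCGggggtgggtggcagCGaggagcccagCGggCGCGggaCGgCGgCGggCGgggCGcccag
Lhx2 (downstream start): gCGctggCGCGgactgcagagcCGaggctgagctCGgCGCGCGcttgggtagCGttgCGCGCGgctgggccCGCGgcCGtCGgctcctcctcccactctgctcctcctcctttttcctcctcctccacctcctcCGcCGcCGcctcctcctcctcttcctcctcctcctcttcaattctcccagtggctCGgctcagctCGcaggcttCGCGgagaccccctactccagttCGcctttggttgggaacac
Myf5: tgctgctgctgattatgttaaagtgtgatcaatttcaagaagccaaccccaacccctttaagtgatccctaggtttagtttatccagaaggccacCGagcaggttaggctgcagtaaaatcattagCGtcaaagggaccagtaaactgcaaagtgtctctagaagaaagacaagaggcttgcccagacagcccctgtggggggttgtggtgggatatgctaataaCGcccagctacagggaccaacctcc

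The Ebf3 window held 43 CpG dinucleotides, more than 99.3% of 32851 such windows of all genes, and 80% G or C. The Lhx2 windows held 25 and 24, more than 89.3% and 88.0% of windows. The Myf5 window held 3, more than 29.0% of windows, with 48.8% G or C. The median window held 6 and was 52.4% G or C. Searched on both strands, none of the 4 windows held TATAAA (found in 12.4% of all windows), the E-box CANNTG (66.2%), the palindrome of Ebf factors (0.779%) or TAATCC of Pitx factors (6.25%). These letters describe the windows only.

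The arrays as a whole limit what can be compared. Array medians over all probe sets lay between 7.47 and 7.54 on the log2 scale in aSHF and between 6.13 and 6.19 in OFT-RV, so log2 values of a gene are set against each other only within a tissue. Whether the tissues also differed in array processing is not given, and tissue and processing cannot be told apart. Dgcr8 itself was at 10.22 ± 0.05 in mutant and 10.34 ± 0.06 in wild-type aSHF pools (SD, n = 4 each), a change of -0.12 (SE 0.05, limma adjusted p = 0.979). In OFT-RV it fell to 7.70 ± 0.07 in mutant pools, against 8.11 ± 0.11 in wild-type pools (SD, n = 4 each; -0.41, SE 0.06, limma adjusted p = 0.00753). No source used here places its probe set relative to the floxed part. Over all probe sets of the array, in place of named genes, the OFT-RV call of Dgcr8 was lost (adjusted p = 0.0570).

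**Figure D1:**
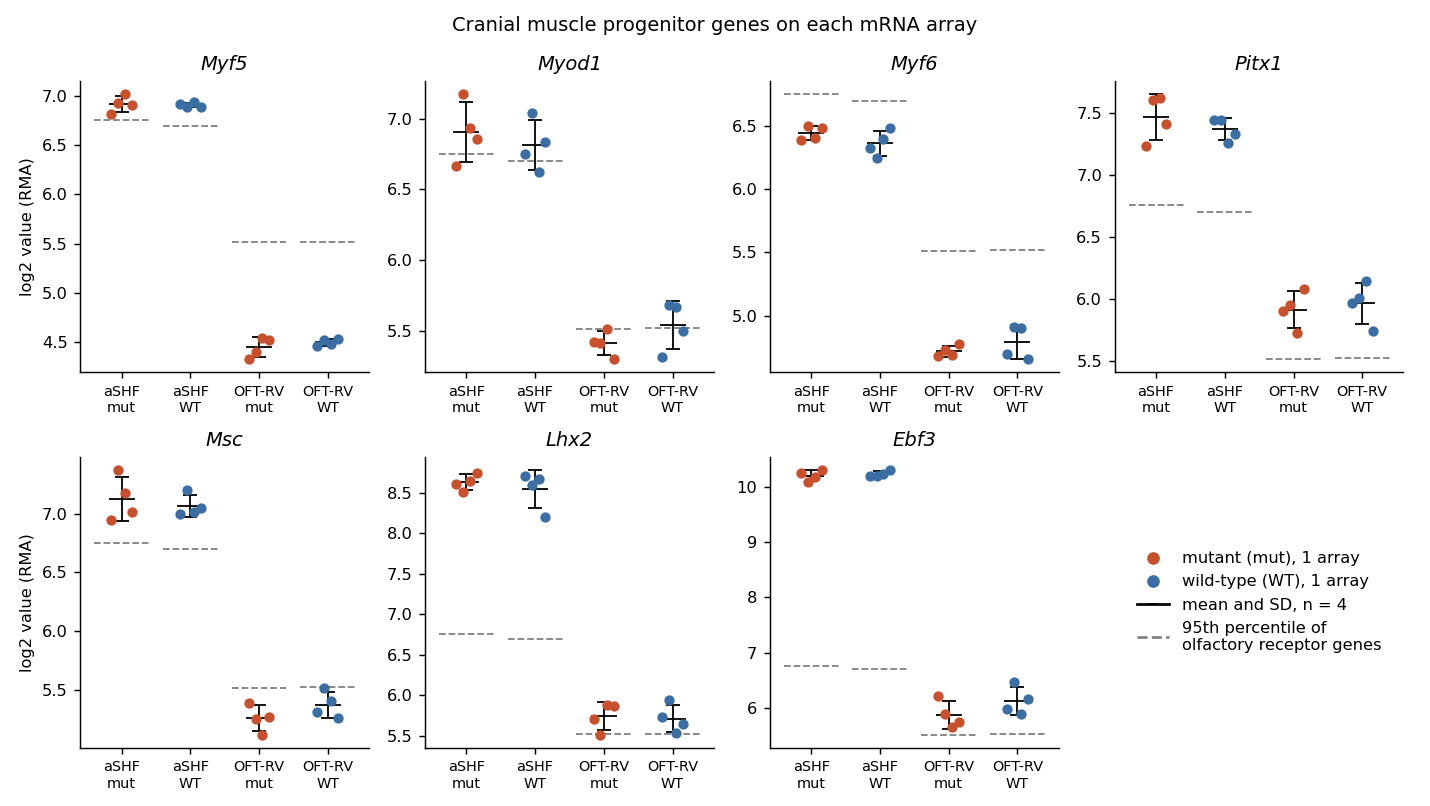
Log2 value of the 7 cranial muscle progenitor genes on each of 16 arrays, with mutant (mut) left of wild-type (WT) in each tissue, the mean and SD of 4 arrays, and the 95th percentile of olfactory receptor genes as a dashed line. The genotypes overlap for every gene in both tissues, while Lhx2 and Ebf3 lie far above the dashed line in aSHF alone.

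Did loss of Dgcr8 in this lineage alter the genes? None of the 7 passed in aSHF by limma at an adjusted p under 0.05, none had an unadjusted p under 0.05, and none passed in the authors' deposited table, where 0.178% of all 20842 genes passed in the fit used here. Mutant and wild-type arrays overlapped for all 7, whereas they did not overlap for 1.62% of all genes. The values below are therefore given as levels, with the 95% interval of each difference.

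Myf5, the first of the determination genes to be switched on, read 6.82, 6.93, 7.02 and 6.91 in aSHF mutant pools, against 6.92, 6.89, 6.93 and 6.89 in wild-type pools. The mutant values lay on both sides of the wild-type values, which spanned only a narrow range. The difference was 0.0098 (SE 0.049), with an interval from -0.099 to 0.12, or 0.934-fold to 1.09-fold.

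Myod1, which acts with and after Myf5, read 6.66, 7.17, 6.93 and 6.85 in aSHF mutant pools, against 6.75, 7.04, 6.63 and 6.83 in wild-type pools. Replicate 2 was the highest array of either genotype. The difference was 0.092 (SE 0.11, interval -0.15 to 0.34), and without mutant replicate 2 it was 0.0023. Myf6, the neighbour of Myf5 on chromosome 10, read 6.39, 6.50, 6.41 and 6.49 in aSHF mutant pools, against 6.33, 6.25, 6.40 and 6.48 in wild-type pools. All of these were below the 95th percentile of olfactory receptor genes (6.75 in mutant and 6.70 in wild-type pools). The difference was 0.081 (SE 0.057, interval -0.045 to 0.21).

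Msc, a repressor that acts in jaw muscle precursors, read 6.95, 7.37, 7.17 and 7.01 in aSHF mutant pools, against 7.0, 7.21, 7.02 and 7.05 in wild-type pools. The wild-type values lay within the range of the mutant values. The difference was 0.061 (SE 0.088, interval -0.14 to 0.26). Pitx1, a factor of the first arch, read 7.23, 7.60, 7.62 and 7.41 in aSHF mutant pools, against 7.45, 7.44, 7.26 and 7.33 in wild-type pools. Its lowest and its 2 highest values were all mutant arrays. The difference of 0.098 (SE 0.086, interval -0.093 to 0.29) was the largest of the 7 in aSHF. It was 0.18 without mutant replicate 1, with an unadjusted p under 0.05, but 0.053 without mutant replicate 2 and 0.046 without mutant replicate 3.

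Lhx2 read 8.61, 8.51, 8.65 and 8.74 in aSHF mutant pools, against 8.71, 8.60, 8.67 and 8.19 in wild-type pools. One array, wild-type replicate 4, was low and the other 7 lay close together. The difference was 0.085 (SE 0.10, interval -0.14 to 0.32) with that array and -0.031 without it. Ebf3, the brightest probe set of the group, read 10.25, 10.09, 10.18 and 10.31 in aSHF mutant pools, against 10.21, 10.20, 10.25 and 10.31 in wild-type pools. The ranges of the genotypes overlapped widely. The difference was -0.033 (SE 0.056), and its interval ran from 0.897-fold to 1.06-fold.

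In OFT-RV none of the 7 passed either, by limma or in the authors' deposited table, where 0.446% of all genes passed in the fit used here (0.432% higher and 0.0144% lower in mutants), and none had an unadjusted p under 0.05. The genotypes again overlapped for all 7, against 3.59% of all genes for which they did not. Ebf3 read 6.21, 5.88, 5.65 and 5.73 in OFT-RV mutant pools, against 5.98, 6.46, 5.89 and 6.16 in wild-type pools. It was the gene with the lowest mutant level relative to wild-type, at -0.26 (SE 0.13, interval -0.55 to 0.039, adjusted p = 0.930), and its spread between pools was larger than that of 99.4% of genes. Leaving out single arrays moved it between -0.37 (without mutant replicate 1) and -0.14 (without wild-type replicate 2). Its unadjusted p was under 0.05 without mutant replicate 1 or wild-type replicate 3.

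Myod1 read 5.42, 5.41, 5.51 and 5.30 in OFT-RV mutant pools, against 5.32, 5.68, 5.66 and 5.50 in wild-type pools. It stood at -0.13 (SE 0.080, interval -0.30 to 0.048), with 2 of 4 wild-type arrays above every mutant array. Msc read 5.39, 5.25, 5.12 and 5.26 in OFT-RV mutant pools, against 5.31, 5.51, 5.41 and 5.26 in wild-type pools, a difference of -0.12 (SE 0.070). Without wild-type replicate 2 the difference of Myod1 was -0.081 and that of Msc -0.069. Without wild-type replicate 1 that of Myod1 was -0.20 and without mutant replicate 1 that of Msc was -0.16, each with an unadjusted p under 0.05.

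Myf5 ranged between 4.33 and 4.54 in OFT-RV mutant pools and between 4.46 and 4.53 in wild-type pools, a difference of -0.049 (SE 0.056). These are typical values of olfactory receptor genes, of which 52.7% lay lower in mutant and 56.5% in wild-type pools. Myf6 ranged between 4.68 and 4.78 in mutant and between 4.66 and 4.91 in wild-type pools (-0.074, SE 0.065). Pitx1 ranged between 5.72 and 6.08 in mutant and between 5.74 and 6.14 in wild-type pools (-0.051, SE 0.090), and Lhx2 between 5.51 and 5.88 in mutant and between 5.54 and 5.94 in wild-type pools (0.030, SE 0.096). The ranges of the genotypes overlapped for each of these 4 genes.

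Exact two-sided permutation of the 4 mutant and 4 wild-type arrays, whose smallest possible p is 0.0286, gave p between 0.200 (Myf6) and 0.771 (Myf5) in aSHF and between 0.171 (Msc) and 0.857 (Lhx2) in OFT-RV. The widest 95% interval in aSHF, that of Myod1, ran from 0.899-fold to 1.26-fold, and in OFT-RV that of Ebf3 ran from 0.683-fold to 1.03-fold. For the dim genes a fold on this scale is compressed by background.

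The direction differed by tissue without passing a test. In aSHF 6 of 7 were higher in mutants, with a median of 0.081 against 0.012 over all genes, of which 12066 of 20842 were higher. In OFT-RV 6 of 7 were lower, with a median of -0.074 against -0.011 over all genes, of which 11893 of 20842 were lower. The change in aSHF minus the change in OFT-RV was positive for all 7, from 0.055 (SE 0.15) for Lhx2 to 0.22 (SE 0.16) for Ebf3, and with array weights that of Lhx2 was -0.053. None passed in the fit of all 16 arrays by limma, where 0.211% of all genes passed (0.0096% positive and 0.202% negative). The lowest adjusted p of the 7 was 0.897, and none had an unadjusted p under 0.05. Myf6 had the smallest unadjusted p, at 0.0978, for a difference of 0.15 (SE 0.089).

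**Figure D2:**
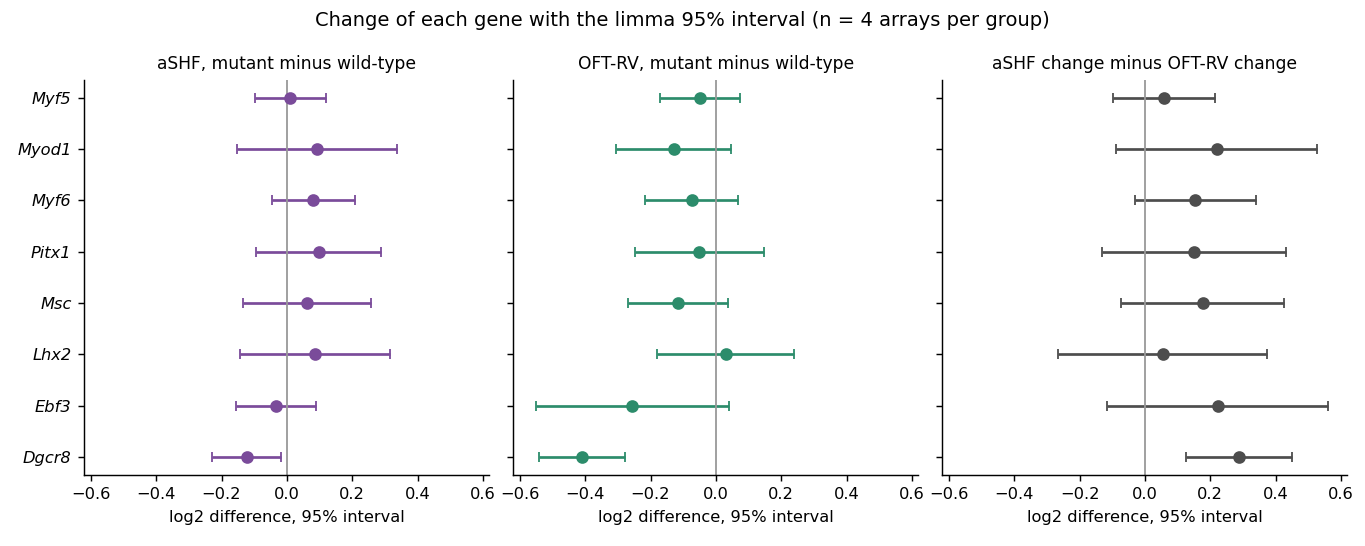
Log2 difference of each cranial muscle progenitor gene and of Dgcr8 with its limma 95% interval, as mutant minus wild-type in aSHF (left) and OFT-RV (middle) and as the aSHF difference minus the OFT-RV difference (right). Every interval of the 7 genes includes 0. Those of Dgcr8 do not, at -0.23 to -0.018 in aSHF, -0.54 to -0.28 in OFT-RV and 0.13 to 0.45 on the right. The intervals are not adjusted for the number of genes. By limma Dgcr8 passed in OFT-RV only, with an adjusted p of 0.00753, against 0.979 in aSHF and 0.409 on the right.

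Single pools stood at the end of the range for several of the 7 genes. In aSHF mutant replicate 2 was the highest of 8 arrays for Myod1, Myf6 and Msc and the lowest for Ebf3, and mutant replicate 1 the lowest for Myf5, Pitx1 and Msc. The mean of the 7 genes deviated from the tissue mean by 0.097 and -0.085 on these arrays, and the mean of the olfactory receptor genes by 0.098 and -0.062. In OFT-RV wild-type replicate 2 stood above the tissue median for all 7 and was the highest array for 5 (Myod1, Myf6, Msc, Lhx2 and Ebf3), with a mean deviation of 0.19 against 0.039 for olfactory receptor genes. The part that any shift shared by a whole array had in the differences was not tested. Without wild-type replicate 2 still 6 of 7 were lower in OFT-RV mutants, with a median of -0.042, and without aSHF mutant replicate 2 the aSHF median was 0.0063 with 6 of 7 higher.

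**Figure D3:**
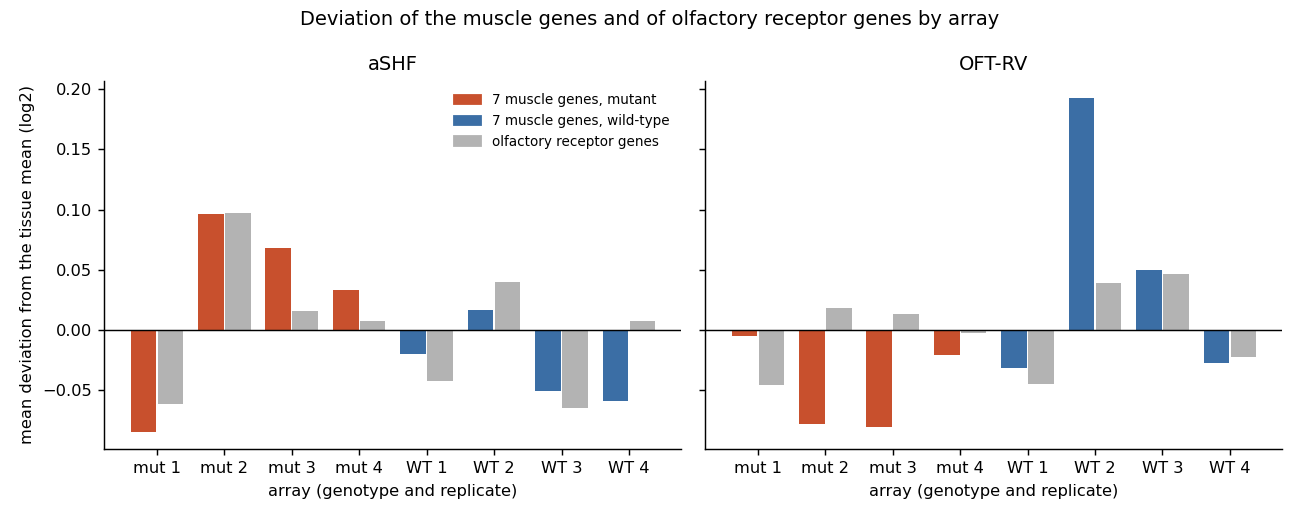
Mean deviation of the 7 cranial muscle progenitor genes (coloured bars) and of 1099 olfactory receptor genes (grey bars) from their mean over the 8 arrays of the tissue, on the log2 scale, with mutant arrays left of wild-type arrays. In aSHF both bars are highest on mutant replicate 2, and in OFT-RV the muscle genes reach 0.19 on wild-type replicate 2.

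The 5 genes outside the group whose values followed the mean of the 7 most closely over the 8 aSHF arrays were Olfr1354, Tekt4, Oog2, Hoxb7 and Slco6b1 (Pearson r from 0.972 to 0.982, each gene standardised). These r were picked from all 20842 genes over 8 arrays and are a description. Olfr1354 is an olfactory receptor gene, Tekt4 encodes a protein of sperm flagella, and Hoxb7 is a posterior Hox gene. None of the 5 passed in aSHF, with changes from 0.022 (SE 0.039) for Slco6b1 to 0.10 (SE 0.099) for Tekt4.

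The wild-type tissues were compared by rank, since the percentile rank of a gene among all named genes of its own array needs no common scale. Ebf3 had a mean percentile rank of 85.5 ± 0.832 in aSHF and 43.8 ± 3.81 in OFT-RV (SD, n = 4 each), and the difference of 41.7 points (SE 1.72) was larger than that of 99.7% of genes. Lhx2 ranked at 59.8 ± 3.12 in aSHF and 36.5 ± 3.13 in OFT-RV (difference 23.3, SE 1.95). Myf5 ranked at 35.0 ± 1.25 in aSHF and 10.6 ± 0.939 in OFT-RV (difference 24.3, SE 0.742), but its OFT-RV signal was no higher than usual for olfactory receptor genes, so the size of this difference is set against background. The differences of Myf5 and Lhx2 were larger than those of 98.0% and 97.7% of genes.

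Msc ranked at 37.6 ± 0.644 in aSHF and 29.8 ± 1.43 in OFT-RV (difference 7.76, SE 0.745), and Myf6 at 26.0 ± 2.37 in aSHF and 17.2 ± 2.03 in OFT-RV (difference 8.78, SE 1.39). Pitx1 ranked at 42.4 ± 1.15 in aSHF and 41.2 ± 2.66 in OFT-RV, and Myod1 at 33.4 ± 1.94 in aSHF and 33.2 ± 2.37 in OFT-RV. The intervals of these last differences, -1.78 to 4.21 and -2.94 to 3.37 points, included 0. By limma on ranks 5 of 7 genes were higher in aSHF (adjusted p from 2.53e-08 for Myf5 to 0.000497 for Myf6) and none lower. Myf6 was not above the 95th percentile of olfactory receptor genes in either tissue, and Myf5 and Msc were not above it in OFT-RV, so these 3 differences are in signal and show no level in OFT-RV. Of all genes 75.9% passed, 39% higher and 36.9% lower in aSHF, so that passing is no mark of these genes. The arrays of the tissues did not overlap for these 5 genes, with an exact permutation p of 0.0286 each. Of all genes 72.1% were separated in this way, 37.1% with aSHF higher.

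Within aSHF wild-type pools the rank order from the top was Ebf3, Lhx2, Pitx1, Msc, Myf5, Myod1 and Myf6. The ranges of Myf5 (33.4 to 36.1) and Myod1 (31.1 to 35.8) overlapped, and no other neighbours in this order did. In OFT-RV wild-type pools the order was Ebf3, Pitx1, Lhx2, Myod1, Msc, Myf6 and Myf5, and each of the first 4 overlapped the next, while Msc, Myf6 and Myf5 were separate from one another. Probe sets differ in how strongly they bind, so this order is one of signals and not of transcript amounts.

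**Figure D4:**
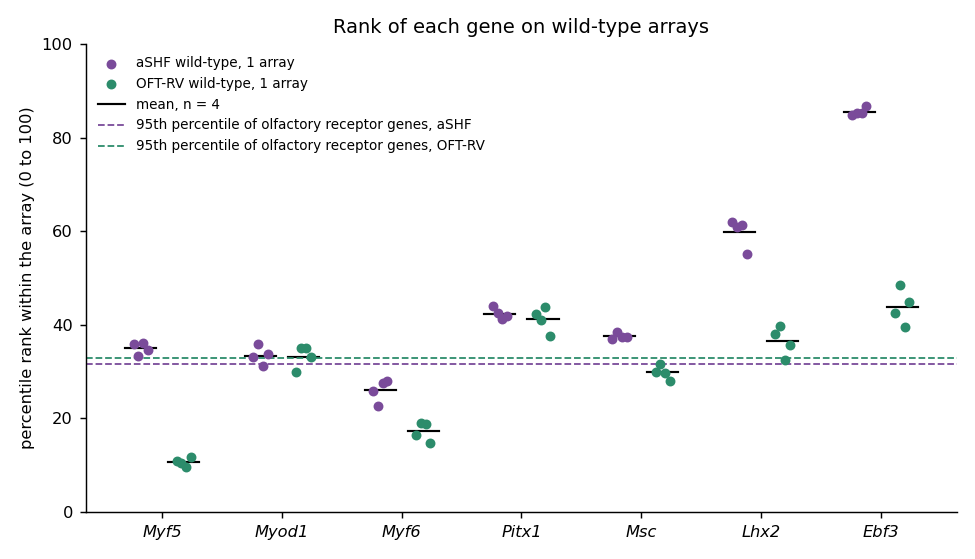
Percentile rank of the 7 cranial muscle progenitor genes among all named genes on each wild-type array, aSHF left of OFT-RV, with means of 4 arrays as bars and the 95th percentile of olfactory receptor genes as dashed lines (31.5 in aSHF and 32.8 in OFT-RV). Ebf3, Lhx2 and Myf5 are separated by over 20 points, and Myod1 and Pitx1 lie at nearly equal ranks.

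Regulators that act before the muscle genes in cranial mesoderm were well above the olfactory receptor genes in aSHF. All 14 listed genes exceeded their 95th percentile there in both genotypes, as did 13 of 14 in OFT-RV. In wild-type aSHF the mean rank was 95.3 for Eya1, a transcriptional cofactor, 90.2 for Tbx1 and 76.6 for Tcf21. None of the 14 passed by limma in either tissue. In aSHF 8 of 14 were higher in mutants (median 0.012), and the smallest p-values belonged to Tbx1, a T-box factor needed for arch muscle, at 0.11 (SE 0.057), to Eya4 at -0.086 (SE 0.056) and to Six4 at -0.056 (SE 0.052). In OFT-RV 13 of 14 were lower (median -0.088), with an unadjusted p under 0.05 for 2 of them. Six4 ranged between 7.12 and 7.15 in OFT-RV mutant pools and between 7.26 and 7.40 in wild-type pools (-0.20, SE 0.045, adjusted p = 0.149). Tcf21 was at -0.24 (SE 0.10, adjusted p = 0.765) and Tlx1 at -0.16 (SE 0.084) in OFT-RV.

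Of 8 close relatives of the 7 genes, which include Tcf21 again, none passed in either tissue. In aSHF 5 of 8 were higher, with Myog, the factor that starts muscle differentiation, at 0.085 (SE 0.067), Lhx9 at 0.063 (SE 0.071) and Pitx3 at 0.052 (SE 0.082). In OFT-RV 6 of 8 were lower, with an unadjusted p under 0.05 for 1, Tcf21 as above, Ebf2 at -0.097 (SE 0.050) and Pitx3 at -0.12 (SE 0.069). Myog did not exceed the 95th percentile of olfactory receptor genes in wild-type aSHF, where 93.9% of them lay lower. In wild-type OFT-RV Myog lay just above that percentile, with 96.3% of them lower.

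Skeletal muscle differentiation genes, Myog among them, were found for 25 of 27 listed symbols, and none passed in either tissue. None had an unadjusted p under 0.05 in aSHF. In aSHF 22 of 25 were higher in mutants (median 0.052), with Myl1 at -0.12 (SE 0.078), Itga7 at 0.11 (SE 0.076) and Tnnt3 at 0.088 (SE 0.064). In OFT-RV 13 of 25 were higher (median 0.0051) and 2 had an unadjusted p under 0.05. Klhl41, a kelch protein of the sarcomere, ranged between 7.20 and 7.53 in OFT-RV mutant pools and between 7.65 and 7.79 in wild-type pools (-0.31, SE 0.071, adjusted p = 0.150). Tnnt1, slow troponin T, was at -0.21 (SE 0.068, adjusted p = 0.523) and Chrna1, a subunit of the muscle acetylcholine receptor, at -0.11 (SE 0.063). Mir206, a miRNA gene that Myod1 is known to switch on, was at 4.60 in mutant and 4.60 in wild-type aSHF pools. Its mean rank was 0.627 in the wild-type pools. Mir133b, another miRNA gene of this list, was at 7.32 in mutant and 7.28 in wild-type aSHF pools. Its mean rank was 41.1 in the wild-type pools, above the 95th percentile of olfactory receptor genes. Acta1, Des and Tnni1 of this list are also used by the embryonic heart.

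Genes of trunk muscle and somites were listed because somite tissue in a pool would bring the same determination genes. None of the 12 passed, and 2 in aSHF and 1 in OFT-RV had an unadjusted p under 0.05, as did 555 and 1216 of all genes. In aSHF 10 of 12 were higher in mutants (median 0.087), with Meox1, a homeodomain factor of somites, between 10.70 and 10.86 in mutant and between 10.24 and 10.69 in wild-type pools (0.25, SE 0.089), Pax7 at 0.13 (SE 0.072) and Tbx18 at -0.28 (SE 0.082), all with an adjusted p of 0.979. In OFT-RV 9 of 12 were lower (median -0.035), with Pax1 at -0.24 (SE 0.066, adjusted p = 0.362), Tcf15 at -0.16 (SE 0.094) and Tbx6 at -0.097 (SE 0.058).

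**Figure D5:**
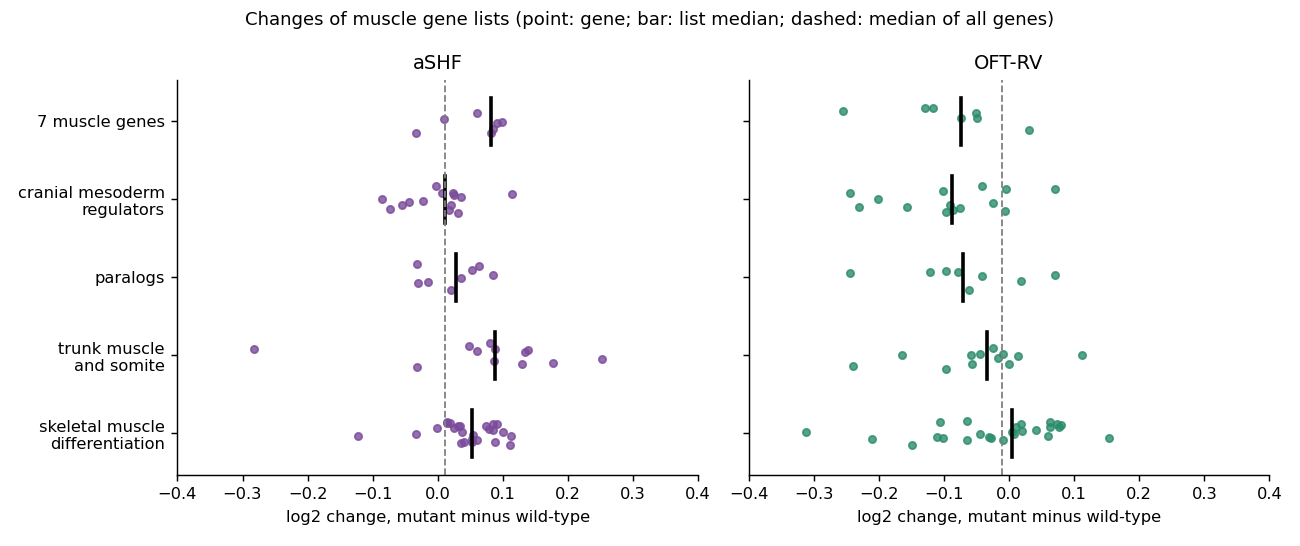
Log2 change, mutant minus wild-type, of each gene in 5 muscle gene lists in aSHF (left) and OFT-RV (right), with list medians as black bars and the median of all genes as a dashed line. No gene shown passed by limma over all genes, and the 7 muscle genes have medians of 0.081 in aSHF and -0.074 in OFT-RV.

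Markers of other cell types were present beside the 7 genes, at summed signals given on the linear scale. All 6 somite markers were above the 95th percentile of olfactory receptor genes in wild-type aSHF, and all 6 were higher in mutants (summed signal 3519 to 3882 in mutant and 2859 to 3594 in wild-type pools, median change 0.13, none passing). All 6 belong to the 12 trunk muscle and somite genes above, of which 2 were lower in aSHF. Meox1 and Pax1 weigh most in the sum, at a mean log2 value of 10.54 and 10.10 in wild-type aSHF. The other markers of the 6 lay between 7.19 (Pax3) and 7.58 (Uncx). Whether these signals came from somite cells was not tested. In OFT-RV 1 of the 6 somite markers was higher (362 to 381 in mutant and 359 to 434 in wild-type pools, median change -0.051). All 8 neural crest markers (6138 to 6590 in mutant and 5984 to 6795 in wild-type pools) and all 8 markers of pharyngeal and oral epithelium (10074 to 10474 in mutant and 9414 to 10315 in wild-type pools) were above it in aSHF, as were 5 of 6 neural markers (1410 to 1676 in mutant and 1425 to 1739 in wild-type pools, Pou4f1 not). In OFT-RV 6 of 8 neural crest markers (655 to 698 in mutant and 682 to 775 in wild-type pools, not Foxd3 and Tfap2b) and 4 of 6 neural markers (351 to 420 in mutant and 366 to 406 in wild-type pools, not Neurod1 and Pou4f1) were above it in wild-type pools. Second heart field markers, of which 5 of 6 were higher and none passed, summed to between 6369 and 6559 in mutant and between 5785 and 6353 in wild-type aSHF pools. Primitive erythroid markers were higher in mutants for 5 of 5 in both tissues, none passing. Cardiomyocyte markers were all above the yardstick in aSHF too (5573 to 9221 in mutant and 5973 to 8440 in wild-type pools). The 7 genes themselves summed to between 2173 and 2327 in mutant and between 2180 and 2213 in wild-type aSHF pools, and to between 291 and 317 in mutant and between 306 and 364 in wild-type OFT-RV pools. The part of these cell types in the signal of Lhx2, Ebf3, Pitx1 and the determination genes was not tested.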

How the data were processed

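The deposited log2 values of 16 mRNA arrays were made by the authors by RMA with oligo (R), as the submitters' processing notes name them, and no source used here gives versions. The authors' deposited tables give log2 changes, p-values and adjusted p-values per gene. Probe sets were named by matching mean and change in both tissues to these tables within 1e-06. All 20889 listed genes matched, 45 that share a probe set and 2 second listings were left out, and 20842 were used. Not used were 30 value columns of 4 tables, whose names match no sample label.

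Groups came from the labels. Mutant and wild-type arrays were compared with limma 3.58.1 (lmFit, eBayes) in R 4.3.3 across all genes, with Benjamini-Hochberg adjustment and a threshold of 0.05. The same was done for the difference between tissues and for percentile ranks. SE is the moderated standard error and SD the spread between pools. The fit was tested on simulated data. Sequences are RefSeq's, and no source used here names the build behind the authors' tables.

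The 7 genes and all lists were chosen with earlier results of these data known. Named are the 7 genes, Dgcr8, up to 3 genes with the smallest p per list and tissue, and the 5 most alike. Some list genes, such as Mir206 and Mir133b, are named outside this rule. Single values of some list genes are not reported here.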

Additional observations from a re-analysis of the deposited data

How the results depend on the processing

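The counts of called genes among the 7 did not change under the alternatives run, namely leaving out any array, a replicate block, array weights, a trended and robust prior, genes above the median level, all probe sets, the authors' deposited table and joint quantile normalization. They were 0 in aSHF, 0 in OFT-RV and 0 for the difference between tissues, and 5 for ranks. Each alternative was run where it applies. With the replicate block, 51 genes passed in aSHF and 95 in OFT-RV, against 37 and 93 without it, and none of the 7 was among them. Whether replicate numbers pair the arrays was not settled. Correlations of same-numbered deviations ran from -0.091 to 0.67 in aSHF and from 0.019 to 0.24 in OFT-RV. In each tissue 1 of 4 arrays was closest to its own number. Between the wild-type tissues these correlations ran from -0.18 to 0.55, with 2 of 4 closest to their own number. The block lowered the SE of Myod1 in aSHF from 0.11 to 0.063 and that of Msc from 0.088 to 0.053. For Pitx1 in OFT-RV it raised the SE from 0.090 to 0.10. In this balanced layout the block can change the SE of a difference but not the difference, so unchanged directions under it are no check. Keeping only genes above the median level left 2 of the 7 in the aSHF test, 0 in OFT-RV and 1 for the difference between tissues, so its counts say nothing of the others. Over all genes it called 11 in aSHF, 46 in OFT-RV and 21 for the difference between tissues. Array weights called 60 in aSHF, and all probe sets, like the authors' deposited table, 18. Leaving out single arrays, between 19 and 43 genes passed in aSHF.

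Directions of small differences turned when single arrays were left out. In aSHF the differences then ranged from -0.023 to 0.043 for Myf5, from -0.021 to 0.12 for Msc, from -0.031 to 0.14 for Lhx2 and from -0.068 to 0.0058 for Ebf3. In OFT-RV they ranged from -0.13 to 0.013 for Pitx1 and from -0.027 to 0.11 for Lhx2. The difference between tissues ranged from -0.061 to 0.11 for Lhx2, and with array weights it was -0.053. The rank difference of Myod1 ranged from -0.880 to 0.985 points. The count above olfactory receptor genes depended on the percentile, which was varied after seeing the data. At the 99th percentile it was 2 in mutant and 2 in wild-type aSHF pools and 0 in mutant and 0 in wild-type OFT-RV pools. At the 90th percentile it was 7 in mutant and 6 in wild-type aSHF pools and 5 in mutant and 5 in wild-type OFT-RV pools. The share of all genes was not taken at these 2 cuts, so the counts are no mark of the 7 genes. The p-values measure the spread between pools.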
